A study of Mus musculus with 2 samples.

Results

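The beta-globin cluster of the mouse lies on chromosome 7 and holds the beta-like globin genes, with the region that controls them upstream. Everything that the deposited lists place on chr7:103762524-103903216 (mm10) was taken, which is the span of Hbb-bt, Hbb-bs, Hbb-bh1 and Hbb-y with 50 kb added on each side, 140.7 kb in all. In library 7 this window held 14 of the 86036 peaks of the shorter peak list, 17 of 127152 hotspots and 14 of the 107626 footprints of the shorter footprint list. In library 1 it held 1 of 42422 peaks, 2 of 50432 hotspots and 4 of 219621 footprints.

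The data are DNase-seq of whole liver from mouse embryos of strain B6NCrl at embryonic day 11.5, with males and females pooled. DNase I cuts open chromatin first, a peak or hotspot is a stretch where cuts pile up, and a footprint is a short stretch inside such a region that is protected from cutting. There were 2 libraries, called 7 and 1 after their technical replicate numbers, and both came from 1 biological sample. They form 1 group, with no other genotype, treatment, age or tissue beside it. No spread between embryos or pools can be given, no test was possible, and a difference between the libraries is one between technical replicates. In a whole organ, fewer cells with an open site and a less open site in each cell cannot be told apart.

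Beta-globin is the beta chain of haemoglobin. In the mouse, Hbb-y and Hbb-bh1 are the embryonic genes, used by the primitive red cells that form in the yolk sac, and Hbb-bs and Hbb-bt are the adult genes, used by the definitive red cells that the fetal liver produces. All are transcribed in the same direction, and the embryonic genes lie nearer the locus control region than the adult genes, with Hbb-y nearest. That region is a series of DNase I hypersensitive sites that act as enhancers for the whole cluster and bind the erythroid factors GATA1, NFE2, TAL1 and KLF1. Sites bound by CTCF, a protein that anchors chromatin loops, flank the cluster on both sides.

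The 5 peaks of library 7 that carry most of what follows are shown first, plus strand of mm10, with the footprints of either library (for library 7, of its shorter list) in capitals. They are named by the distance of their summit from the Hbb-y start, in the direction away from the gene, or by their distance beyond the 3′ end of Hbb-bt at the other side of the cluster. The first is the peak that both libraries listed, 7.88 kb upstream of Hbb-y at chr7:103860995-103861210. The next stand 6.075 kb upstream at chr7:103859173-103859410 and 17.7 kb upstream at chr7:103870746-103870982, and follow it in density. The last are the distant peaks 5.45 kb beyond Hbb-bt at chr7:103806958-103807183 and 19.3 kb beyond it at chr7:103793060-103793317.
7.88 kb upstream: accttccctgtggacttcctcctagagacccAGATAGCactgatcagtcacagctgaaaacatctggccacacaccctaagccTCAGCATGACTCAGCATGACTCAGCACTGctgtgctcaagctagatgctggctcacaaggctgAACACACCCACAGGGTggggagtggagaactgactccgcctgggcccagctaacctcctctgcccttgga
6.075 kb upstream: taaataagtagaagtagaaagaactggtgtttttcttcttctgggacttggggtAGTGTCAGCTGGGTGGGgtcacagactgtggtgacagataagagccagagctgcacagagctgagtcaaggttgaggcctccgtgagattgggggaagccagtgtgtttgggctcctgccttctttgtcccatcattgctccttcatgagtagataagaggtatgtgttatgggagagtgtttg
17.7 kb upstream: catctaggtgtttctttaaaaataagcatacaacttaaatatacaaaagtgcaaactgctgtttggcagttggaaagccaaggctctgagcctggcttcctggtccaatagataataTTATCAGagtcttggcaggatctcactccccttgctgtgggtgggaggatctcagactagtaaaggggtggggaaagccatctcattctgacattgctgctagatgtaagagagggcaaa
5.45 kb beyond Hbb-bt: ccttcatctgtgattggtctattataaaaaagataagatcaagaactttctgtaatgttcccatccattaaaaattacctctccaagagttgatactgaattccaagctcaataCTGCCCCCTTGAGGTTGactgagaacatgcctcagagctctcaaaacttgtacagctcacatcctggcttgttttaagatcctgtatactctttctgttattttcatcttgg
19.3 kb beyond Hbb-bt: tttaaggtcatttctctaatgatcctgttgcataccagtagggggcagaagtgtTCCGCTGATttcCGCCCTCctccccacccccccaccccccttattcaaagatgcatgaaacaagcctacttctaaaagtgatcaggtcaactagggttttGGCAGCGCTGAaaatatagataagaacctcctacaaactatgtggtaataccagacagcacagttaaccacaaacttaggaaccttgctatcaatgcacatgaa

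The proximal promoters of 3 of the genes follow, from RefSeq (GRCm38.p6), in the direction of transcription, with matches to searched motifs in capitals. They run from 120 to 71 bases before the RefSeq start for Hbb-bt (chr7:103813994-103814043) and Hbb-y (chr7:103853278-103853327), and from 99 to 70 bases before it for Hbb-bs (chr7:103827998-103828027), all on the minus strand. They are shown for the motif matches there. The 2 adult genes match the KLF letters searched and a CCAAT box, and Hbb-y matches a CCAAT box with another overlapping motif.
Hbb-bt: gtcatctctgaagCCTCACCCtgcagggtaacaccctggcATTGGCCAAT
Hbb-bs: gtagagCCACACCCtggtaagggCCAATct
Hbb-y: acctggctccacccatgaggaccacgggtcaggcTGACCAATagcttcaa

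The comparison of embryonic with adult gene starts asked which promoters were listed as open. A start counted as open where a peak came within 1 kb of an annotated transcript start. In library 7 this held for both adult genes and for neither embryonic gene in the shorter list, 2 of 4, where 65.3% of all 21951 protein-coding genes had such a peak. In library 1 it held for 0 of 4, against 59.8% of all genes, and in both libraries together for 0 of 4, against 59.3%. With the longer list of library 7, Hbb-y also had a peak, 3 of 4, against 67.4%.

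Hbb-bt, an adult beta-chain gene and the one farthest from the control region, had its peak at chr7:103813876-103814097 with a density of 0.469. That is the 31.3 percentile of the peaks in library 7, below the library's median density of 0.625. The summit lay 61 bp upstream of the RefSeq start, and 174 of the 222 bp of the peak lay before it. GENCODE begins the transcript farther upstream, at base 103813996, which puts the summit in the 5′ UTR of exon 1. In library 1 this start was in neither current peak list, but the variable-width list of the earlier processing held it with a signal of 0.419.

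Hbb-bs, the other adult gene, had its peak at chr7:103827906-103828147 with a density of 0.601, the 47.8 percentile. The summit lay 101 bp upstream of the RefSeq start, at which the basic GENCODE transcript also begins, with 219 of 242 bp before it. An alternative transcript of the comprehensive GENCODE set has a 5′ UTR exon there, chr7:103828012-103828096, which covers the summit. No list of library 1 held this start, in either processing. From the RefSeq starts, both adult summits lay upstream of the gene; from the GENCODE start, the Hbb-bt summit lay just inside exon 1, which covers 121 of the 222 bp of that peak. Both adult densities were below the median of their library.

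Hbb-y, the main embryonic gene, had a peak in the longer list of library 7 alone, chr7:103853050-103853247, with a density of 0.385 (31.6 percentile of that list). In that longer list the Hbb-bt and Hbb-bs peaks stood at the 45.7 and 58.7 percentile. By the smoothed height given for each peak the order was another, 0.281 for Hbb-y, 0.247 for Hbb-bs and 0.190 for Hbb-bt. Measured from the RefSeq starts, the placement of the Hbb-y peak differed from that of the adult peaks. Its summit lay 89 bp downstream of the RefSeq start, in the coding part of exon 1. Of its 198 bp, 158 lay from the start onward. A hotspot of library 7 ran across the start, chr7:103852957-103853426, at a −log10 FDR of 2.62 (FDR 0.00243). The hotspots at the adult starts had values of 6.92 for Hbb-bt and 5.66 for Hbb-bs. Hbb-bh1, the other embryonic gene, had no peak, hotspot or footprint within 1 kb of its start in any list of either library, and the nearest peak of the longer list ended 9.89 kb away.

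The adult genes are close copies, so whether reads could be placed at their starts was checked in the genome sequence. Within 150 bp of the start, 71.4% of the 36-base words at Hbb-bt and 71.1% at Hbb-bs occur once in the genome, against 100% at Hbb-bh1 and at Hbb-y. All 36-base words inside each of the 16 peaks of the longer list occur once. The peaks at the adult starts therefore lie in sequence that is unique at this length, and so does the empty start of Hbb-bh1. The adult peaks cover 48 bp (Hbb-bt) and 23 bp (Hbb-bs) from the start onward, and the repeated words reach beyond that, into the gene. Whether a peak as far inside as the Hbb-y summit, 89 bp after the start, could be listed in the adult genes was not tested. Neither the labels nor the headers state the read length or the mapping filter.

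Footprints at the starts were few. Hbb-bt had 1 in the shorter list, chr7:103813938-103813944, between the CCAAT box nearest the gene and the RefSeq start. Hbb-bs had none in the shorter list and 2 in the longer one. One of these, chr7:103828017-103828023, overlaps part of the KLF match of the Hbb-bs promoter shown above and runs past it. Such letters are the type of site bound by KLF1, which is required for adult beta-globin transcription. Hbb-y had 1 in the longer list, inside exon 1, and library 1 had none within 250 bp of any of the 4 starts.

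The promoters were searched on both strands, over 250 bases before and 50 after the RefSeq start, for 8 motifs. The letters CCNCNCCC, for KLF and SP factors, occurred in Hbb-bt 107 bases and in Hbb-bs 93 bases before the start, and in 49.5% of all 32851 promoters of the table. Hbb-y had no match, but the letters CTCCACCC in its sequence above are close to those searched and were not counted. The letters CCAAT, bound by NF-Y, occurred in all 3 promoters, 3 times in Hbb-bt and once each in Hbb-bs and Hbb-y, and in 37.4% of all. In Hbb-bt a pair of CCAAT matches on opposite strands stands side by side, at 80 and 75 bases before the start. TGACCA, a motif of the globin repressor BCL11A, was matched in Hbb-y alone among the 3, 86 bases before the start and overlapping its CCAAT box. It occurs in 13.6% of all promoters.

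Of the remaining letters, ATAAAA, which is TATA-like, occurred in Hbb-y 28 bases before the start (18.5% of all promoters). Hbb-bt and Hbb-bs hold the close letters ATATAA just before their starts, which were not counted. AGATAA, for GATA factors, occurred in Hbb-bs 210 bases before the start (11.2%). TGANTCA, for NFE2 and AP-1, matched 26 bases after the Hbb-bs start (7.81%). CTGNNNNNNNNAGATAA, for TAL1 with GATA1 (0.362%), and the CTCF core CCANNAGNNGGC (2.43%) matched none of the 3. Aligned over 250 bases before the start, the promoters of the 2 adult genes were 70.5% identical. Hbb-y was 54.2% identical to Hbb-bt and 53.6% to Hbb-bs.

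Upstream of Hbb-y, the interval from its 5′ end to Olfr66, the nearest protein-coding gene on that side, measures 26.2 kb (chr7:103853217-103879442). Library 7 placed 7 of the 14 peaks of the window there, all intergenic, with summits from 6.075 to 24.1 kb upstream of Hbb-y. This is 2.67 peaks per 10 kb, beside 0.316 per 10 kb over the placed chromosomes. Their summed density was 61.9% of that of all 14 peaks. Library 1 placed 1 peak there, the peak at 7.88 kb.

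The peak at 7.88 kb had a density of 2.79 in library 7, the 91.2 percentile. In library 1 its density was 1.41, the 56.8 percentile of that list, at chr7:103860988-103861224. It was the densest of the window in library 7, and also had the highest hotspot value, 42.6 in library 7 and 5.23 in library 1. The signal in the earlier list of library 1 was 1.38. Of the deposited peaks of this window, it alone stood in every list of both libraries.

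The peak at 17.7 kb followed with a density of 1.502 (81.9 percentile), and the peak at 6.075 kb with 1.21 (76.4 percentile). The peak at 6.075 kb was the other place with a hotspot in the current list of library 1, at a value of 2.01, without a peak in its current lists. The hotspot list of the earlier processing held 7 hotspots of library 1 in the window. The peak at 12.7 kb had a density of 0.781. The outer peaks were lower, 0.581 at 20.04 kb, 0.469 at 21.4 kb and 0.629 at 24.1 kb. None of these 3 was in any peak list of library 1, while its earlier list held the other 4 of the interval.

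**Figure D1:**
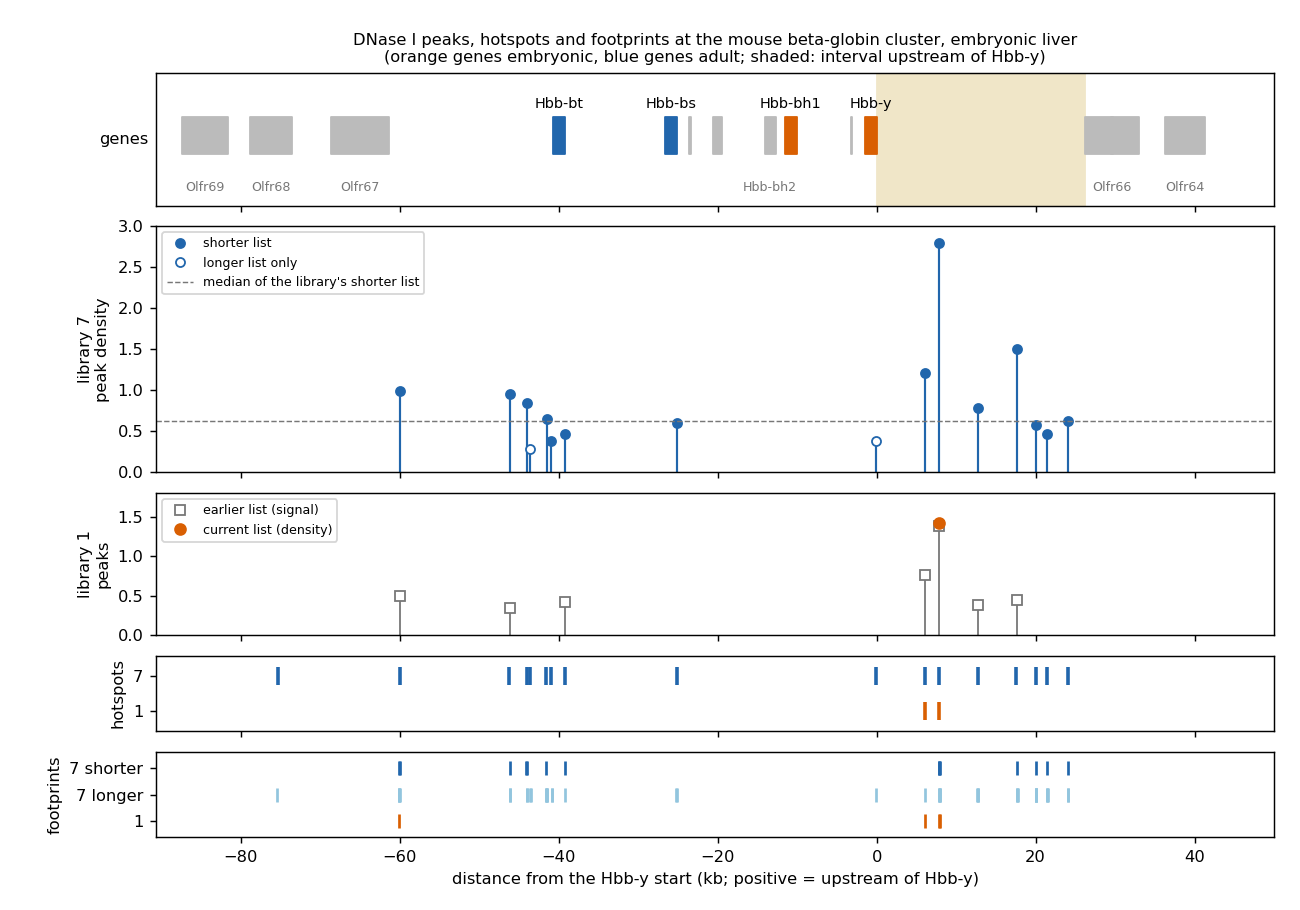
The window by distance in kb from the Hbb-y start (positive is upstream): genes, peak densities of library 7, peaks of library 1 in the current list (density) and the earlier list (signal), hotspots and footprints. Peaks of library 7 cluster from 6.075 to 24.1 kb upstream and beyond the 3′ side of Hbb-bt, and no filled point lies between Hbb-bs and the upstream cluster.

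Between these groups the shorter list of library 7 was empty. From the end of the Hbb-bs peak to the first upstream peak, 31.025 kb passed without a listed peak, a stretch that contains Hbb-bh1, Hbb-y, Hbb-bh2 (a further beta-like gene) and 2 globin pseudogenes. It was the widest gap between neighbouring peaks of the window, and the next widest, between the 2 adult starts, was 13.8 kb. The longer list placed 1 peak in it, the peak in exon 1 of Hbb-y.

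Beyond the 3′ end of Hbb-bt, library 7 listed 5 peaks. Those nearest the gene stood at 0.239 kb (density 0.381, the lowest of the window, 14.5 percentile) and 0.858 kb (0.653). The others stood at 3.36 kb (0.845), 5.45 kb (0.949) and 19.3 kb (0.997). The longer list added 1 at 2.88 kb with a density of 0.280. The peak at 19.3 kb lies on the near side of Olfr67, an olfactory receptor gene. None of the 5 olfactory receptor genes around the cluster, nor Hbb-bh2, had a peak within 1 kb of its start in either list of library 7. Over all protein-coding genes, 65.3% had one in the shorter list and 67.4% in the longer list.

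**Figure D2:**
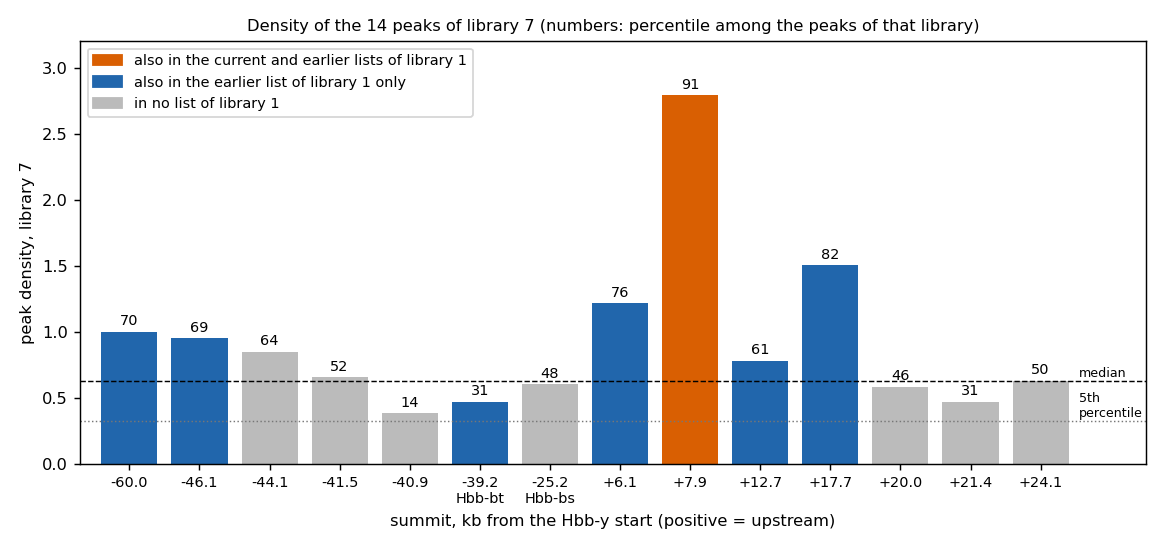
Peak density in library 7 (bars from 0) of the 14 peaks in order along the chromosome, with the percentile among all peaks of the library above each bar, and its median and 5th percentile as lines. The bar at +7.9 kb reaches 2.79, both adult starts stay under the median of 0.625, and colours show which peaks the lists of library 1 also held.

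Sharing between the libraries was sparse in this window. Of the 14 peaks of library 7, 1 overlapped a peak of library 1, where 46.2% of all peaks of library 7 did. Of the 12 that lay over 1 kb from every annotated start, 1 did, where 29.4% of all such peaks did. The 13 without a counterpart had densities in library 7 from 0.381 to 1.502. The 5th percentile of the listed densities was 0.324 in library 7 and 0.646 in library 1, on scales that are not shown to be common.

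An earlier processing of library 1 was deposited too, and gives a second view of the same library. Its files have no header, so that its signal and score are read from the layout of the columns, and their scale is unknown. Its variable-width list held 7 of the 14 peaks, where 64.3% of all peaks of library 7 were in it. The 7 were the peaks 7.88, 6.075, 12.7 and 17.7 kb upstream, the Hbb-bt start, and the peaks 5.45 and 19.3 kb beyond Hbb-bt. The other 7, with densities of at most 0.845 in library 7, included the Hbb-bs start. A list of 150 bp peaks from the same processing held the same 7 sites, with its highest score, 281, at 7.88 kb. The stricter of the variable-width lists held the peak at 7.88 kb alone.

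Over these 7 sites, the order of the density in library 7 and of the signal in library 1 was related, with Spearman's rho 0.75 and Pearson's r 0.902. This describes sites of 1 sample, which share their libraries. Without the peak at 7.88 kb, r over the other 6 was 0.395 and rho was 0.6. The peak at 6.075 kb reached 43.5% of the top density in library 7 and 55.2% of the top signal in library 1. The peak at 17.7 kb stood lower in library 1, at 53.8% and 32.4%, and the Hbb-bt start higher, at 16.8% and 30.2%.

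**Figure D3:**
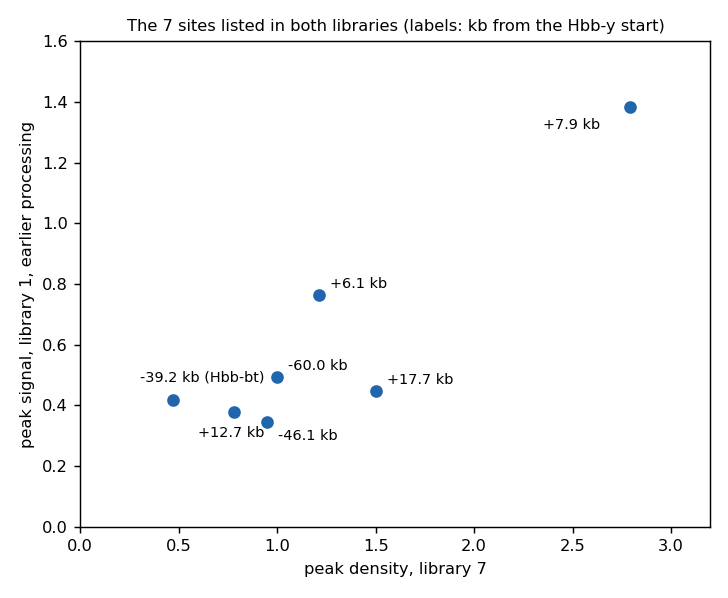
Peak density in library 7 (x axis) against peak signal in the earlier processing of library 1 (y axis) for the 7 sites listed in both, labelled by kb from the Hbb-y start. The site at +7.9 kb is highest on both axes at 2.79 and 1.38, and the other 6 lie between 0.345 and 0.763 in library 1.

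A further 2 tables of library 1 list each position where the rate of cuts passed an FDR of 0.05, made from 2 alignments of the library. In the first, 7 of the 14 peaks held such a position, where 73.5% of all peaks of library 7 did, and they were the same 7 sites. Of the 823 bp listed in the window, 726 lay in peaks of library 7. At 7.88 kb all 216 bp of the peak were listed, with a lowest FDR of 1.49e-06. The peak at 6.075 kb had 161 bp (lowest FDR 0.00218), and the peak at the Hbb-bt start 56 bp (0.0250). No position was listed within 1 kb of the starts of Hbb-bs, Hbb-bh1 or Hbb-y, and the second table gave 820 bp and the same starts.

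Footprints of the shorter list of library 7 lay in 10 of the 14 peaks, where 58.2% of all peaks had one, and those of the longer list in all 14, where 84.2% did. Footprints of library 1 lay in 3 of the 14, where 56.1% of all peaks of library 7 held one. The 14 footprints were 7 to 29 bp wide, with a median of 9 bp, which is also the median of the whole list. The widest of them stood at the summit of the peak at 7.88 kb.

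That footprint, chr7:103861078-103861106, is 29 bp wide, and 1205 of the 107626 footprints of its list are as wide or wider. It covers 2 matches to TGANTCA, the site of NFE2 and AP-1, which start 10 bases apart on the same strand and can be read in the sequence above. A tandem NFE2 site of this kind is a known feature of the strongest erythroid enhancer of the control region. Of all 86036 peaks of library 7, 27 (0.0314%) held 2 such matches starting at most 12 bases apart, and of the 14 in the window only this one did. The pattern and its limit of 12 bases were not among the motifs fixed beforehand, so the share describes this peak and does not test it. A footprint of library 1, chr7:103861088-103861106, ends on the same base and is 19 bp wide.

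Farther along the same peak, both libraries had a footprint that overlapped between them, chr7:103861148-103861156 in library 7 and chr7:103861141-103861151 in library 1. The one of library 7 overlaps a KLF match. Another footprint, of library 7 alone, chr7:103861026-103861032, holds the letters AGATAGC, and matches none of the searched motifs. The footprints of the window that the shorter list of library 7 and the list of library 1 shared all lay in this peak, 2 of 14 and 2 of 4. The share over all footprints of the 2 lists was not computed, so nothing is read from these counts.

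In the peak at 6.075 kb, library 1 had a 17 bp footprint, chr7:103859227-103859243, which overlaps a KLF match. The shorter list of library 7 had none there. Its longer list had one at chr7:103859240-103859251, which overlaps the footprint of library 1 and the same match. This peak held a match to each of 4 motifs within 75 bp of its summit, GATA, NFE2, KLF and CCAAT, and the NFE2 match starts 3 bp from the summit.

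The peak at 17.7 kb had 1 footprint in the shorter list, chr7:103870863-103870869. Its letters, TTATCAG, contain TGATAA on the other strand, which is close to the searched GATA letters but was not counted. A match to AGATAA stands just beside it, outside the footprint. At 24.1 kb the footprint chr7:103877336-103877343 lies on a match to AGATAA, and the whole peak holds 3 such matches, one of them with the TAL1 letters at the spacing searched. The footprints at 20.04 and 21.4 kb overlap none of the searched motifs.

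**Figure D4:**
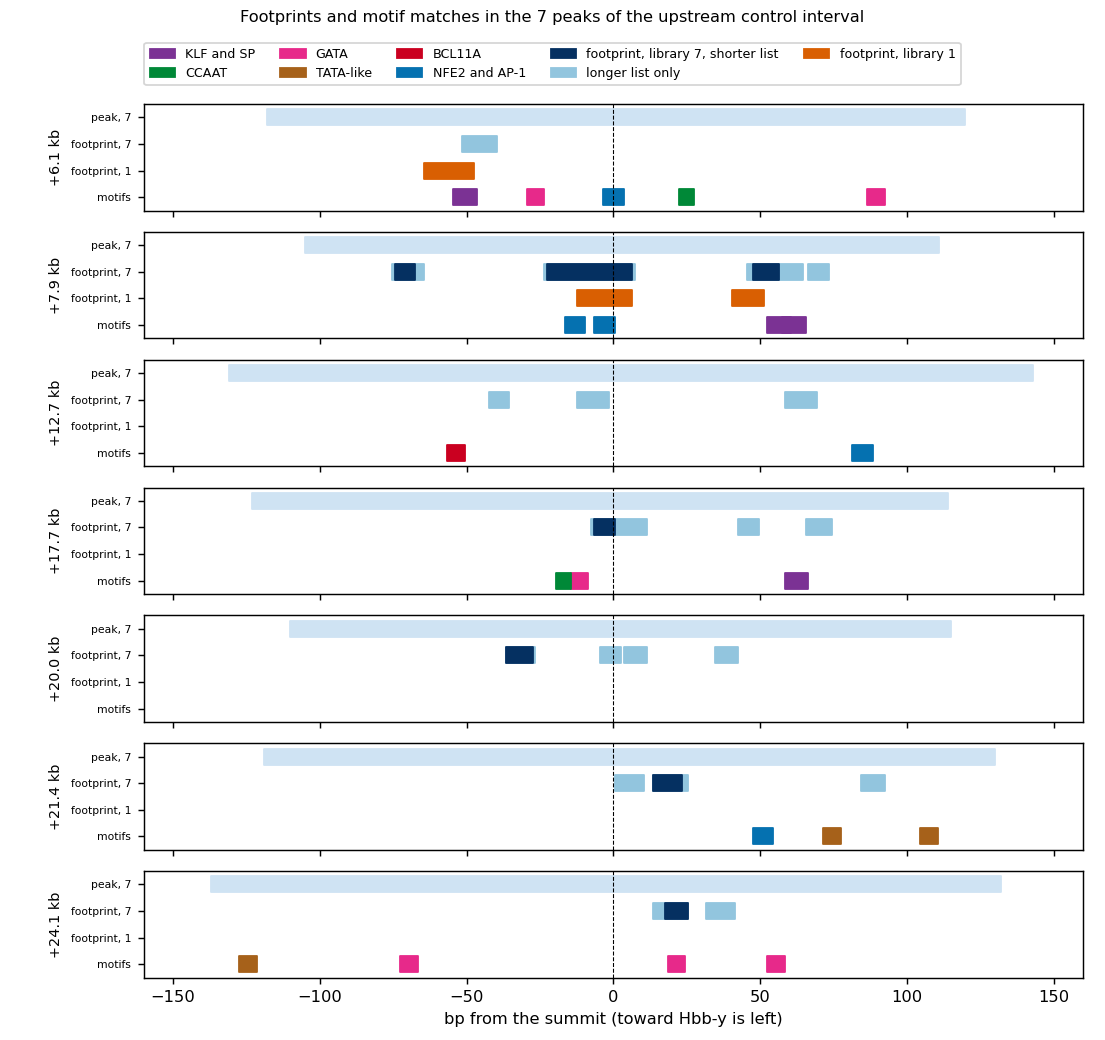
The 7 peaks of the upstream interval by distance in bp from their summits, with the footprints of both libraries and the motif matches. The 29 bp footprint at +7.9 kb spans a pair of NFE2 matches in library 7 and in part in library 1, and the rows at +12.7 to +24.1 kb hold no footprint of library 1.

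At the far side of the cluster, the footprint in the peak 5.45 kb beyond Hbb-bt, chr7:103807072-103807088, is 17 bp wide and covers a match to CCNNNAGNNGGC, on the minus strand. These letters are the CTCF core with the third base left free, a form added after the sequence was seen. It occurs within 75 bp of the summit in 18.6% of all peaks of library 7, and in 24.0% of those over 1 kb from a start, as this peak is. The core as first written matched once in the window, in the peak 19.3 kb beyond Hbb-bt, 103 bp from its summit and outside every footprint. In that peak each library had footprints of its own, and none of library 1 overlapped one of library 7.

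Counted within 75 bp of the summit, AGATAA was found in 5 of the 14 peaks of the window and in 3 of the 7 upstream, beside 10.05% of all peaks of library 7 and 14.15% of those over 1 kb from a start. TGANTCA was found in 4 of 14 and 3 of 7, beside 4.86% and 6.20%. CCNCNCCC was found in 7 of 14 and 3 of 7, beside 32.4% and 22.9%, and CCAAT in 4 of 14 and 2 of 7, beside 17.7% and 16.4%. TGACCA was found in 1, at 12.7 kb upstream, beside 7.55% and 9.09%. The CTCF core, TAL1 with GATA1 and ATAAAA were found in none, beside 12.6%, 1.06% and 5.55% of all peaks. Of the peaks over 1 kb from a start, 18.4%, 1.575% and 7.24% held them. These counts depend on the width searched. Within 50 bp of the summit, TGANTCA was found in 2 of the 14 and CCNCNCCC in 3, of which 0 were upstream, and over the whole peak ATAAAA was found in 4. These are matches of letters and do not show that a factor was bound.

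The alpha-globin cluster, which codes for the partner chain of haemoglobin, gives a second globin locus in the same 2 libraries. Its 5 genes with 50 kb on each side (chr11:32226400-32350873) held 23 peaks in library 7 and 12 in library 1. Of the 23, 11 were shared, 47.8%, which is near the 46.2% of all peaks of library 7, beside 1 of 14 at beta-globin. With flanks of 20 kb the alpha window held 11 peaks of library 7, of which 3 were shared, beside 12 and 1 at beta-globin, so 8 of its shared peaks lie in the outer flanks. The highest density in library 7 was 4.16 there and 2.79 at beta-globin, and the medians were 0.865 and 0.717. Starts with a peak numbered 3 of 5 in library 7, beside 65.3% of all protein-coding genes, and 2 of 5 in library 1, beside 59.8%. Hba-a1 and Hba-a2 had none in either library, and Hba-x had one in library 7 only. Whether reads could be placed at the alpha-globin starts was not checked. The alpha window is richer in G and C, 47.5% against 38.5%, and its part in these differences was not tested.

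Of 20 known regulators of the globin genes, among them Gata1, Klf1, Bcl11a and Myb, all had a peak at a start in library 7, all had one in library 1, and in all the peaks were shared. Over all protein-coding genes these shares were 65.3%, 59.8% and 59.3%. The red cell markers had one in 9 of 10 in library 7 and 7 of 10 in library 1, with Alas2, the first enzyme of red cell haem synthesis, in neither. The hepatoblast markers had one in 9 of 10 and 5 of 10, and markers of macrophages, endothelium and other cells in 3 of 8 in both. In library 1 the counts of the red cell and hepatoblast markers are near or below the share over all genes, and nothing is read from them. How much of the signal at the beta-globin cluster comes from each cell type was not tested.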

How the data were processed

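The deposited lists were used as the authors made them, with coordinates in mm10, which GRCm38.p6 shares. Per the file headers, peaks carry a signal (the highest density of cuts, its value at the summit and a smoothed height) and hotspots a −log10 FDR. The earlier files of library 1 were deposited without headers, and from their layout were read as a signal per peak, a score per 150 bp peak or region, and an FDR (p-value scale) per position. The densities fell on whole multiples of a step, 0.00401 in library 7 and 0.0101 in library 1, within 0.02 steps; the deposited headers do not say what a step is. Depth is therefore unknown, as are the aligner, the callers and the thresholds that separate shorter from longer lists (not given in the sources used here).

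Overlaps (1 bp), starts (GENCODE vM21 basic, with RefSeq beside it), percentiles, motif matches and k-mers were computed in Python 3.11.15 with pandas, pysam and Biopython, and tested on simulated data. The members and lists were chosen with earlier results of these data known. Named were the 4 genes and the peaks at their starts, in the upstream interval, in both libraries or of the highest density; the other peaks of the window and the alpha-globin cluster stand beside them. One motif was added after seeing the sequence, and the tandem NFE2 pattern was not among the motifs fixed beforehand. No comparison had replicates, so none was tested. The Hbb-bh1 promoter was not in the sequence table used.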

Additional observations from a re-analysis of the deposited data

How the results depend on the processing

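Of 68 alternative values of the counts and of sequence uniqueness, 47 were labelled as the same as the reported value. Of 24 alternative percentiles and motif counts, 12 were. Counts were the same within 1.5 times. Uniqueness was judged by a binomial interval that treats overlapping words as independent. Percentiles were judged more narrowly than 1.5 times: the Hbb-bs peak, at 47.8, was labelled moved at 48.6 by the density at the summit. Within 50 bp of the summit, NFE2 matches were in 2 peaks instead of 4, KLF matches in 3 instead of 7 and TGACCA in 0 instead of 1. Over the whole peak, TATA-like letters were in 4, and the CTCF core and TAL1 with GATA1 in 1 each, instead of 0. With the stronger 50% of peaks, library 7 kept 9 of its 14 peaks in the window and 0 of the 2 member starts, and the alpha-globin cluster kept 15, 5 and 5 in library 7, in library 1 and shared. With the earlier lists of library 1, chosen after seeing the data, library 1 held 7 window peaks (variable width, and 150 bp), 1 member start and 4 upstream peaks. Without 1 of the libraries, the peaks listed ranged from 1 to 14 in the window, 0 to 2 at member starts, 1 to 7 upstream and 12 to 23 at alpha-globin. A hotspot value of at least 3 left 1 of 2 in library 1. The longer footprint list held 41 instead of 14, and 2 of 4 footprints of library 1 lay in a peak of that library. A flank of 20 kb left 11, 3 and 3 peaks at alpha-globin. With 76-base words, 84.1% at the Hbb-bt start and 83.6% at the Hbb-bs start were unique. By smoothed height, the Hbb-bt and Hbb-bs peaks fell to the 21.9 and 37.2 percentile. The main limits are 1 biological sample, an unknown depth, and lists whose thresholds are not stated; a site that is not listed was not shown to be closed.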
